A study of Rattus norvegicus with 24 samples.

Results

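The miRNAs rno-miR-653-5p, rno-miR-653-3p, rno-miR-489-5p and rno-miR-489-3p are the mature arms of the miR-653 and miR-489 hairpins, which lie in an intron of the calcitonin receptor gene Calcr. They were taken by name from the table of raw read counts, all 4 were present, and they make up 4 of its 1098 miRNAs. They were chosen by name with the raw counts of these same libraries, by nucleus and treatment, already in view. Their levels in the nuclei are therefore given below as a description, and the p-values of their treatment comparisons are not independent of the choice. Small RNA was sequenced from the paraventricular nucleus of the hypothalamus (PVN) and the central nucleus of the amygdala (CEA) of male Sprague–Dawley rats, bought at 7 weeks of age. The study writes PVN out as periventricular nucleus, and it is taken here as the paraventricular nucleus. Each nucleus had 4 treatment groups of 3 libraries, 24 libraries in all. Normal control (NC) rats had no operation, and hepatectomy (HT) rats had about 20% of the left liver lobe removed under isoflurane. HT + EA rats were operated on in the same way and received electroacupuncture at Zusanli (ST 36) and Sanyinjiao (SP 6) for 30 min, on the day before surgery and again right after it. HT + SEA rats were operated on and had needles at the same points without current. The rats of all 4 groups, NC included, were awake in a restraint device for the same time, and the brains were collected 24 h after the final session. The dissected nuclei hold many cell types, and the brain tissue used for the different assays was not all from 1 animal.

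A miRNA hairpin is cut from a longer transcript and then trimmed to a short duplex whose strands are the 5p and 3p arms. The arm that is loaded into an Argonaute protein guides it to messenger RNAs through the seed near its 5′ end, and these messages are then repressed. Hairpins in an intron of a coding gene are often made from the same primary transcript as that gene. The calcitonin receptor is a G protein-coupled receptor for calcitonin and, together with accessory proteins, for amylin, and it is found on neurons of the hypothalamus and brainstem that act in feeding and fluid balance. miR-489 is also known for holding muscle stem cells in a resting state.

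The mature sequences are shown because each of the 4 arms carries a seed of its own, so reads of one arm are not reads of another. They are RefSeq sequences of the GRCr8 assembly, written 5′ to 3′, with the seed (bases 2 to 8) in capitals.
rno-miR-653-5p: uUGAAACAuucucuacugaac
rno-miR-653-3p: uUCACUGGgguuuguuucacua
rno-miR-489-5p: uGUCGUAUgcgugaugacacguuc
rno-miR-489-3p: aUGACAUCacauauauggcagc

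The arms are 21, 22, 24 and 22 bases long in that order. In GRCr8 they lie on the minus strand of chromosome 4, miR-653-5p at chr4:32647455-32647475, miR-653-3p at chr4:32647417-32647438, miR-489-5p at chr4:32648099-32648122 and miR-489-3p at chr4:32648063-32648084. None of the 4 seeds occurs at bases 2 to 8 of any other of the 693 mature rat miRNAs in RefSeq. Over bases 2 to 7, miR-653-3p shares its letters with rno-miR-181b-1-3p, a minor arm of the miR-181 family, and the other 3 members share them with no other miRNA among these 693. The predicted miRNAs and the known ones that RefSeq lacks were not searched. The counts of the members were likewise their own. No miRNA of the table had counts identical to a member in every library, and the closest profile differed from its member by at least 58.1% in some library.

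The hairpins are shown because both arms of each were counted, with the mature arms in capitals.
Mir653: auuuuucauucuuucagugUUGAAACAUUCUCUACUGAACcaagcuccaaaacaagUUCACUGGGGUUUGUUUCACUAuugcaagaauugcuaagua
Mir489: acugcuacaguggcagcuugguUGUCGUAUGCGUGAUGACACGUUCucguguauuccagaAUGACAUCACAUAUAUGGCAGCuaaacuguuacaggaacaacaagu

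Mir653 spans 97 bases at chr4:32647398-32647494, and Mir489 spans 106 bases at chr4:32648039-32648144, both on the minus strand of GRCr8. They are separated by 544 bases and lie within the span of Calcr on its own strand. No other gene of the RefSeq table lies within that span, which has no exon positions there, so that they are intronic is stated as background. Calcr messenger RNA was not measured in these libraries.

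Depth, as the sum of miRNA reads in a library, was 6584345 to 14828269 for PVN tissue and 9463321 to 14913564 for CEA tissue. PVN depth differed with treatment, with medians of 7364616 reads in NC, 9276805 in HT, 13460699 in HT + EA and 13447863 in HT + SEA. Levels are CPM (reads of a miRNA scaled to a common library size) after TMM scaling, which corrects for differences in library composition, and 3 reads, used here as the detection limit, correspond to 0.201 to 0.456 CPM before that scaling. These limits cover counting error only. The nuclei are named in the labels, the tissue field says only brain, and the labels do not tie libraries to animals. As many rats as there are libraries per nucleus were divided at random among the groups, but which rats gave which library is not stated, so the p-values measure only the spread between these libraries, which may be technical. All 3 neuronal marker miRNAs examined (miR-124-3p, miR-128-3p and miR-138-5p) were detected in the libraries of every group.

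All 4 members were higher in each PVN library than in any CEA library. miR-653-5p, the most abundant arm, had a lowest, median and highest PVN level of 308, 480 and 581 CPM, against 13.1, 56.9 and 93.6 CPM in the CEA. miR-653-3p, its partner strand, had 15.3, 19.0 and 22.7 CPM in the PVN against 0.0935, 1.63 and 2.60 CPM in the CEA. Over 12 libraries, miR-653-5p was carried by 65843 reads in the PVN and 8006 in the CEA, and miR-653-3p by 2605 and 238. So the major strand was well measured in both nuclei and its partner only in the PVN. miR-489-5p, the more abundant arm of its hairpin, had 22.6, 29.5 and 34.1 CPM in the PVN against 0.591, 3.75 and 6.80 CPM in the CEA. miR-489-3p had 9.61, 12.3 and 18.6 CPM in the PVN against 0.222, 1.41 and 2.63 CPM in the CEA. For each member the lowest PVN library lay above the highest CEA library, by 3.29-fold for miR-653-5p, 5.88-fold for miR-653-3p, 3.32-fold for miR-489-5p and 3.66-fold for miR-489-3p. Of 618 miRNAs with at least 10 reads in a library, 12.1% had all 12 PVN libraries above all 12 CEA libraries.

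**Figure D1:**
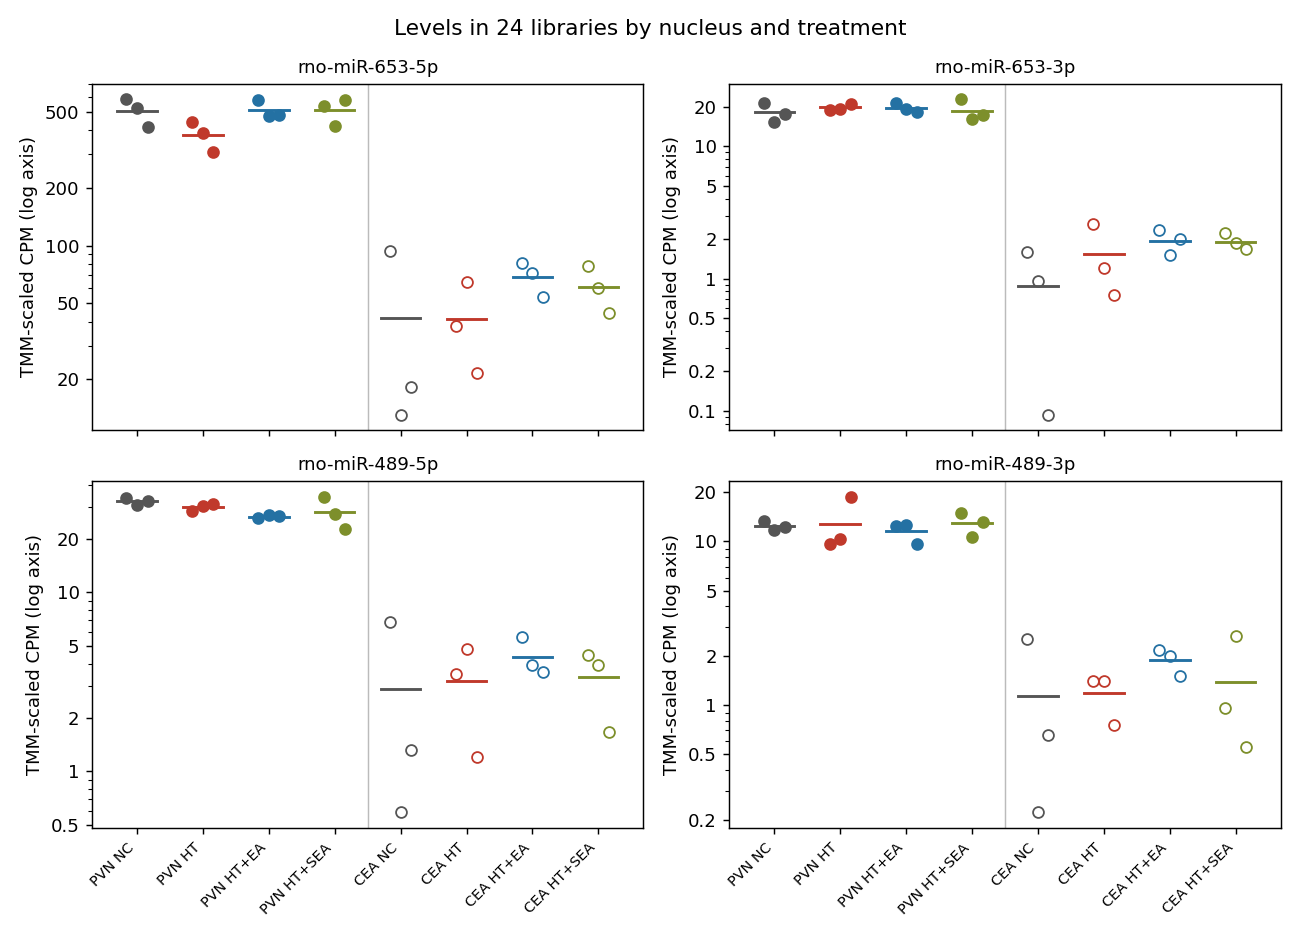
Level of each member in the 24 libraries, as TMM-scaled CPM on a log axis, with a point per library and a bar at the mean of each group of 3. PVN libraries (filled points) lie above all CEA libraries (open points) for each member, and the CEA NC points of miR-653-5p run from 13.1 to 93.6 CPM.

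As mean log2 CPM, the PVN minus CEA difference was 3.37 for miR-653-5p (10.3-fold on this scale), 3.83 for miR-653-3p (14.2-fold), 3.34 for miR-489-5p (10.1-fold) and 3.36 for miR-489-3p (10.2-fold). These folds are ratios of geometric means, which low CEA libraries raise, and the arithmetic means of miR-653-5p were 478 ± 85.6 CPM (SD, n = 12) in the PVN and 53.1 ± 26.4 in the CEA. On the log2 scale these were the 4 largest differences in this direction among the 618 miRNAs. Since the members were chosen with these counts in view, no test is given. The difference held within each treatment. For miR-653-5p it was 4.16 in NC, 3.32 in HT, 2.91 in HT + EA and 3.10 in HT + SEA on the log2 scale. For miR-489-5p it was 4.17, 3.43, 2.62 and 3.15 in the same order. In NC it was 4.88 for miR-653-3p and 4.0 for miR-489-3p, and the CEA NC group behind these values had 3 libraries that differed widely from each other. Without CEA NC 1, which stood above the other CEA NC libraries for all 4 members, the NC difference was 5.02 for miR-653-5p, 5.59 for miR-653-3p, 5.13 for miR-489-5p and 4.87 for miR-489-3p. The value of miR-653-3p also rests on CEA NC 3, which held 1 read of it, below the detection limit of 3 reads, and without that library it was 3.81, against 3.84 in HT. In dissected tissue, fewer cells that make a miRNA and less of it per cell cannot be told apart. Marker miRNAs differed between the nuclei as well, and their part in these levels was not tested: the summed level of 3 neuronal markers ran from 8880 to 15170 CPM in the PVN and from 23150 to 35640 CPM in the CEA, that of 3 oligodendrocyte markers from 1776 to 3172 CPM and from 3944 to 7968 CPM, and that of 6 markers of ciliated ependyma and choroid plexus from 2307 to 4057 CPM and from 238 to 1181 CPM, in the same order. The ciliated list did not move as a whole. Its log2 PVN minus CEA differences were 2.21 for miR-34c-5p, 2.22 for miR-34b-5p, 2.24 for miR-34b-3p and 2.30 for miR-34c-3p. Its miR-449a-5p went the other way at -0.20, and miR-449c-5p was not among the 618 miRNAs.

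**Figure D2:**
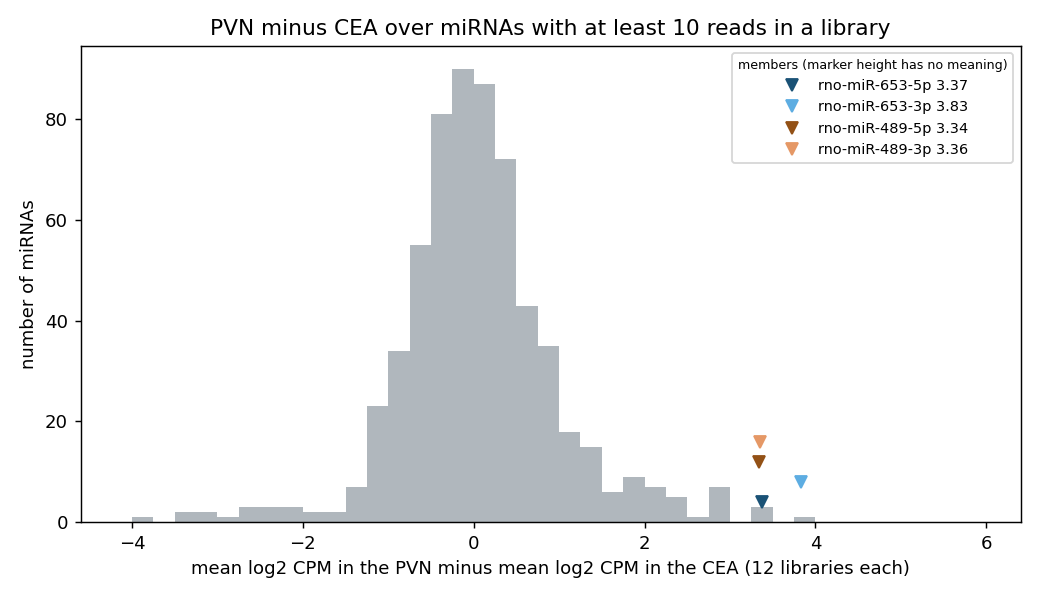
Distribution over 618 miRNAs of the PVN minus CEA difference in mean log2 CPM, with the number of miRNAs on the vertical axis. The 4 members, marked by triangles whose height has no meaning, sit at the right end of the distribution between 3.34 and 3.83.

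The spread between libraries differed between the nuclei. Across 12 PVN libraries the coefficient of variation was 17.9% for miR-653-5p, 12% for miR-653-3p, 11.8% for miR-489-5p and 20.4% for miR-489-3p. Across 12 CEA libraries it was 49.7%, 45.9%, 55.6% and 57.2%. The highest library exceeded the lowest by 1.88-fold in the PVN and 7.16-fold in the CEA for miR-653-5p. On the log2 scale the spread was widest in the CEA NC group. Its SD of log2 CPM over 3 libraries was 1.52 for miR-653-5p, 1.88 for miR-653-3p (with the library of 1 read), 1.76 for miR-489-5p and 1.67 for miR-489-3p, against a median SD of 0.17 over 354 known miRNAs with at least 10 CPM in that group.

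In order of group means, miR-653-5p was at 513 ± 80.3 CPM (SD, n = 3) in PVN HT + SEA, 512 ± 55.3 in PVN HT + EA, 507 ± 81.9 in PVN NC and 379 ± 67.7 in PVN HT. The CEA groups followed at 68.7 ± 13.7 in HT + EA, 60.9 ± 16.9 in HT + SEA, 41.6 ± 45.1 in NC and 41.4 ± 21.5 in HT. Within a nucleus, neighbours in this order had overlapping libraries, and the gap between PVN HT and CEA HT + EA was the only break between neighbours.

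In the PVN, miR-653-5p was the member whose values differed most between treatments, and no difference passed a Benjamini-Hochberg adjusted p under 0.05. Its levels were 581, 521 and 419 CPM in the NC libraries and 443, 386 and 308 CPM in the HT libraries. HT 2 and HT 3 lay below all NC libraries, and HT 1 lay above NC 3, so the groups overlapped. The log2 fold change of HT against NC was -0.42 (SE 0.158, 95% interval -0.73 to -0.11), with an unadjusted p of 0.00816 and a Benjamini-Hochberg adjusted p of 0.155 (edgeR quasi-likelihood test) over 986 miRNAs. When all 4 PVN groups entered the edgeR fit it was -0.45 with an adjusted p of 0.0422, and 3.99% of all miRNAs were called. Over all alternatives, libraries left out included, the adjusted p in edgeR or DESeq2 ranged from 0.0422 to 0.570.

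In the HT + EA libraries miR-653-5p was at 576, 478 and 482 CPM. All 3 lay above the 3 HT libraries, as did 7.51% of the 985 miRNAs tested. The log2 fold change of HT + EA against HT was 0.45 (SE 0.135, 95% interval 0.18 to 0.73), with an unadjusted p of 0.00221 and a Benjamini-Hochberg adjusted p of 0.109 (edgeR quasi-likelihood test). In the fit blocked on replicate number, the log2 fold change was 0.47 and the adjusted p in edgeR 0.0126. Leaving out HT 1, HT 2 or HT 3 gave fold changes of 0.60, 0.47 and 0.31 with adjusted p-values of 0.00225, 0.0482 and 0.0324 in edgeR. In these fits, as in the blocked fit, the spread came almost wholly from all miRNAs together. Over all alternatives, libraries left out included, the adjusted p in edgeR or DESeq2 ran from 0.00225 to 0.303. The blocked fit called 3.05% of all miRNAs, and the fits without HT 1, HT 2 or HT 3 called 5.26%, 3.93% and 4.02%.

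In the HT + SEA libraries miR-653-5p was at 539, 423 and 577 CPM. HT + SEA 2 lay below HT 1, and the other libraries lay above the HT range. The log2 fold change against HT was 0.44 (SE 0.140, 95% interval 0.16 to 0.73), with an unadjusted p of 0.00365 and a Benjamini-Hochberg adjusted p of 0.240 (edgeR quasi-likelihood test). The adjusted p in edgeR was 0.0466 with the robust estimate of the spread and 0.00811 without HT 1, where the fold change was 0.57, and it reached 0.818 without HT + SEA 3, where the unadjusted p was 0.0818. In the robust fit and in the fit without HT 1 the spread came almost wholly from all miRNAs together, and they called 0.6% and 3.14% of all miRNAs. Real and sham needling differed by a log2 fold change of -0.01 for HT + EA against HT + SEA (95% interval -0.20 to 0.17). That interval comes from a fit with an infinite prior, and may be too narrow, since the SD of log2 CPM of miR-653-5p was 0.15 in HT + EA and 0.24 in HT + SEA, against medians of 0.10 and 0.11 over known miRNAs with at least 10 CPM. All 3 comparisons with HT use the same HT libraries and are not independent of each other.

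Over the members in the PVN, 0 of 4 were called at an adjusted p under 0.05 in any of the 4 comparisons by edgeR, and 0 of 4 by DESeq2. Among all miRNAs tested, edgeR called 3.25% for HT against NC, 1.02% for HT + EA against HT, 0.2% for HT + SEA against HT and 2.72% for HT + EA against HT + SEA. DESeq2 called 0.609%, 1.32%, 0.2% and 0.201% of all miRNAs, with the comparisons in the same order. At an unadjusted p under 0.05, miR-653-5p alone of the members passed, with both edgeR and DESeq2. It was lower in HT than in NC, as were 6.09% of all miRNAs, and higher in HT + EA and in HT + SEA than in HT, as were 5.58% and 3.6%. In either direction, edgeR passed 10.9%, 11.4% and 8.3% of all miRNAs at that threshold in these comparisons, against 1 of 4 members in each. Between the needled groups 7.14% of all miRNAs and 0 of 4 members passed.

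The other PVN members did not pass the test in any PVN comparison made, and the needled groups were not compared with NC by a fit. miR-653-3p, cut from the same hairpin as miR-653-5p, was at 18.1 ± 3.04 CPM (SD, n = 3) in NC, 19.7 ± 1.2 in HT, 19.7 ± 1.66 in HT + EA and 18.7 ± 3.51 in HT + SEA. Its log2 fold change was 0.13 for HT against NC (95% interval -0.32 to 0.58) and 0.02 for HT + EA against HT (-0.33 to 0.38). These intervals include the point values of miR-653-5p neither for HT against NC nor for HT + EA against HT. Whether the arms differed was examined on their shares, below. miR-489-5p was at 33.8, 30.6 and 32.5 CPM in NC, 28.7, 30.3 and 31.1 in HT, 26.0, 26.99 and 26.8 in HT + EA, and 34.1, 27.5 and 22.6 in HT + SEA. Its HT + EA libraries all lay below its HT libraries, as for 8.02% of miRNAs, with a log2 fold change against HT of -0.15 (95% interval -0.48 to 0.17). miR-489-3p was at 13.4, 11.7 and 12.1 CPM in NC, 9.61, 10.3 and 18.6 in HT, 12.5, 12.5 and 9.62 in HT + EA, and 14.93, 10.7 and 13.2 in HT + SEA. HT 3, with 219 reads of miR-489-3p against 83 and 98 in HT 1 and HT 2, was the highest PVN library for this arm. Over the 4 PVN comparisons the log2 fold changes of these 3 arms lay between -0.18 and 0.13.

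**Figure D3:**
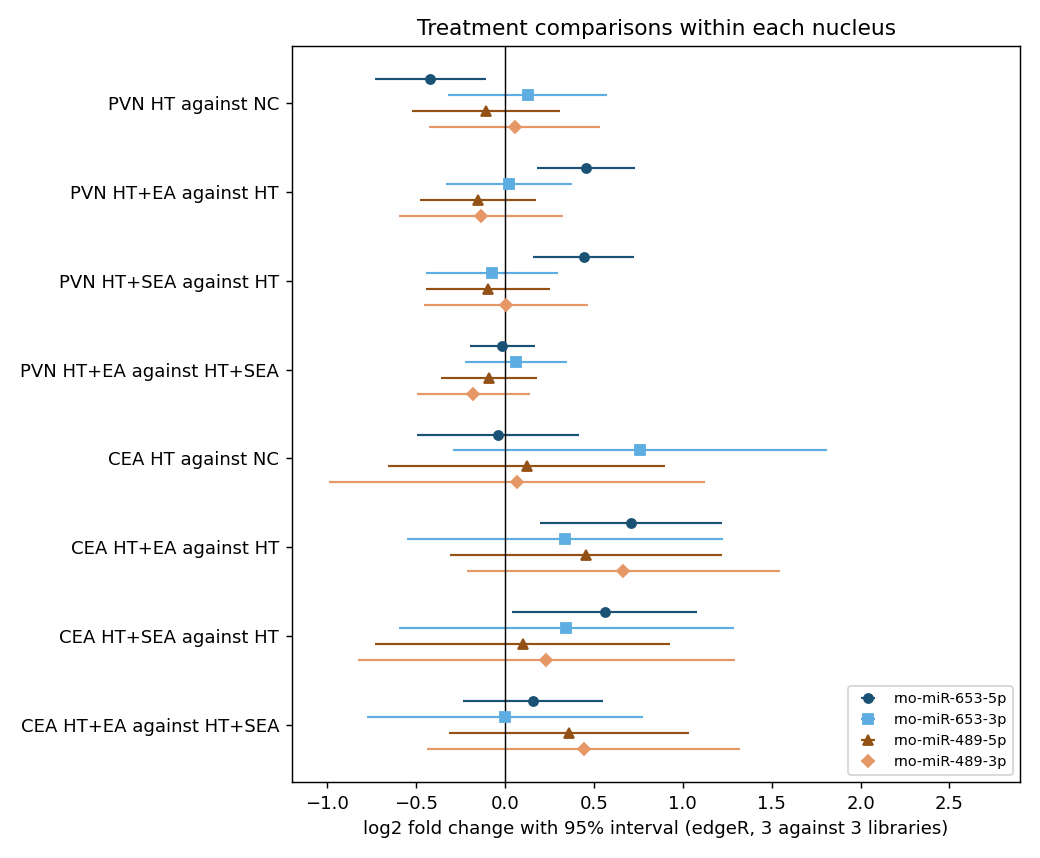
Log2 fold change of each member in 8 treatment comparisons, with 95% intervals from edgeR fits of 3 against 3 libraries and a line at 0. In the PVN, miR-653-5p lies at -0.42 when HT is set against NC and at 0.45 and 0.44 for HT + EA and HT + SEA against HT, while the intervals of the other 3 arms include 0 in all 8 comparisons.

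Marker miRNAs moved between the same PVN groups. The summed level of the 3 neuronal markers was 8880 to 11380 CPM in NC, 13080 to 15170 in HT, 10590 to 11360 in HT + EA and 9642 to 13540 in HT + SEA. That of the 6 markers of ciliated ependyma and choroid plexus was 3259 to 4057 CPM in NC, 2307 to 2722 in HT, 2464 to 2803 in HT + EA and 2895 to 3077 in HT + SEA. Among these 6, 1 had 0 reads in all HT libraries and 1 had 0 reads in all HT + EA libraries. As a group, HT thus had the highest neuronal and the lowest ciliated sums, with ranges that overlapped a needled group in both, and it also had the lowest miR-653-5p. Myeloid markers (4 miRNAs) summed to 95.1 to 184.9 CPM in NC and 73.6 to 86.2 in HT, red cell markers (4) to 267 to 337 and 229 to 234, and striated muscle markers (4) to 44.3 to 111 and 20.4 to 31.8. Across 12 PVN libraries, miR-653-5p had a Pearson r of -0.66 with the neuronal sum, 0.57 with the ciliated sum and 0.12 with the number of reads in the library. Its r was 0.29 with the red cell sum, 0.26 with the striated muscle sum, 0.16 with the myeloid sum and -0.23 with the oligodendrocyte sum. The libraries of a correlation share their treatment groups and their scaling, and the part of these markers in the values of miR-653-5p was not tested.

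In the CEA, the compared groups overlapped for miR-653-5p, and its NC libraries lay farther apart than any group means did. miR-653-5p was at 93.6, 13.1 and 18.1 CPM in the NC libraries, from 881, 177 and 194 reads. NC 1 thus lay far above NC 2 and NC 3 and was the highest of all CEA libraries, although its depth was the lowest in the CEA. In HT it was at 38.2, 64.2 and 21.7 CPM, inside the range of NC. In HT + EA it was at 80.7, 71.6 and 53.8 CPM, and in HT + SEA at 78.2, 59.9 and 44.4 CPM. Both needled groups overlapped the HT group through HT 2.

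The same libraries were high and low for miR-489-5p, from the neighbouring hairpin. It was at 6.80, 0.591 and 1.31 CPM in CEA NC, from 64, 8 and 14 reads, and at 3.51, 4.84 and 1.2 CPM in HT. It was at 5.66, 3.92 and 3.57 CPM in HT + EA and at 4.46, 3.94 and 1.67 CPM in HT + SEA. NC 1 was again the highest CEA library and NC 2 the lowest. miR-489-3p had 24, 3 and 7 reads in NC, 14, 14 and 10 in HT, 32, 28 and 22 in HT + EA and 14, 34 and 7 in HT + SEA. Its HT + EA libraries lay above its HT libraries, as for 4.98% of the 1004 miRNAs tested, with a log2 fold change of 0.67 (95% interval -0.22 to 1.55). miR-653-3p had 15, 13 and 1 reads in NC, 26, 12 and 10 in HT, 34, 21 and 29 in HT + EA and 32, 24 and 21 in HT + SEA. These arms thus rest on 1 to 34 reads per library.

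The log2 fold change of miR-653-5p for HT against NC in the CEA was -0.04 (SE 0.233, 95% interval -0.50 to 0.42). In the fit blocked on replicate number the direction turned, to 0.36 with an unadjusted p of 0.0893 in edgeR. The value also rested on NC 1. Without it the fold change was 1.40 at an adjusted p of 0.000195 (edgeR, Benjamini-Hochberg), and that of miR-489-5p was 1.74 with an adjusted p of 0.0362. That fit called 0.919% of all miRNAs and 2 of 4 members. Without any other single library, the fold change of miR-653-5p ran from -0.46 to 0.32. For HT + EA against HT it was 0.71 (SE 0.254, 95% interval 0.20 to 1.22), with an unadjusted p of 0.00807 and a Benjamini-Hochberg adjusted p of 0.454 (edgeR quasi-likelihood test). The fold change became a call in edgeR without HT 1 (0.66, adjusted p = 0.0343), without HT 2 (1.14, adjusted p = 0.00107) and without HT + EA 3 (0.88, adjusted p = 0.0374). These fits called 1.41%, 2.11% and 0.508% of all miRNAs. The unadjusted p rose to 0.0982 without HT 3, where the fold change was 0.39, and to 0.166 without HT + EA 2, both in edgeR. It was also above 0.05 in edgeR with filterByExpr (0.0823), at least 10 counts (0.0744), robust estimates (0.106) and all 4 groups in the fit (0.0885). HT 1 was at 38.2 CPM with TMM scaling and at 31.4 CPM by its library total. For HT + SEA against HT the log2 fold change was 0.56 (SE 0.261, 95% interval 0.04 to 1.08), with an unadjusted p of 0.0356 and an adjusted p of 0.956 in edgeR, and it was 1.0 with an adjusted p of 0.034 without HT 2, where 1.73% of all miRNAs were called. It was 0.23 with an unadjusted p of 0.401 without HT 3 and 0.31 with 0.485 without HT + SEA 1, and 5 of 8 other edgeR and DESeq2 alternatives also gave an unadjusted p above 0.05. HT + EA against HT + SEA gave 0.16 (95% interval -0.24 to 0.55). These fits took most of their spread from all miRNAs together. The SD of log2 CPM of miR-653-5p was 1.52 in NC, 0.78 in HT, 0.30 in HT + EA and 0.41 in HT + SEA, against medians of 0.17, 0.24, 0.15 and 0.20 over known miRNAs with at least 10 CPM, so its intervals may be too narrow. DESeq2, which estimated a standard error of 0.956 for miR-653-5p in HT against NC where edgeR gave 0.233, called 0 of 4 members in each CEA comparison. Of all miRNAs it called 0.1% for HT against NC, 0.0996% for HT + EA against HT, and 0.0% for HT + SEA against HT and between the needled groups.

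Over the members in the CEA, 0 of 4 were called at an adjusted p under 0.05 by edgeR in each of the 4 comparisons, against 0.201% of all miRNAs for HT against NC, 0.0996% for HT + EA against HT, 0.4% for HT + SEA against HT and 0.0% for HT + EA against HT + SEA. At an unadjusted p under 0.05, miR-653-5p alone passed in edgeR, higher in HT + EA than in HT, as were 1.79% of all miRNAs (5.28% in either direction), and higher in HT + SEA than in HT, as were 2.0% (4.7% in either direction). For HT against NC 3.82% of all miRNAs and 0 of 4 members passed, and for the needled groups 2.24% and 0 of 4. With DESeq2, miR-653-5p passed in HT + EA against HT and not in HT + SEA against HT. The log2 fold changes of the other 3 arms lay between 0.00 and 0.76, with intervals that include 0.

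A treatment difference in a nucleus is not shown to be particular to it without a test of the difference itself. The log2 fold change of miR-653-5p in the PVN minus that in the CEA was -0.45 for HT against NC (95% interval -1.13 to 0.24), -0.30 for HT + EA against HT (-0.99 to 0.39), -0.10 for HT + SEA against HT (-0.78 to 0.58) and -0.22 for HT + EA against HT + SEA (-0.70 to 0.27). For HT against NC, edgeR called 0 of 4 members at an adjusted p under 0.05 and 0.188% of the 1064 miRNAs tested. In the other 3 interactions it called 0.0% of all miRNAs tested. At an unadjusted p under 0.05, edgeR passed 0 of 4 members in each interaction, against 4.98%, 1.9%, 2.66% and 2.27% of all miRNAs in the order given. Same-numbered PVN and CEA libraries deviated together in NC (r of 0.14 to 0.29), HT + EA (0.19 to 0.22) and HT + SEA (0.17 to 0.66) and not in HT (-0.11 to 0.07). With the replicate block in edgeR, miR-653-5p passed at that threshold for HT against NC (-0.70, unadjusted p of 0.0172). So did miR-489-5p (-0.70, unadjusted p of 0.0414) and miR-489-3p (-0.87, unadjusted p of 0.0368) for HT + EA against HT, and miR-489-3p between the needled groups (-0.72, unadjusted p of 0.0404). None of these was called after adjustment, the smallest adjusted p in edgeR being 0.803. The blocked fits called 0.188% of all miRNAs for HT against NC, 0.0% for HT + EA against HT and 0.473% between the needled groups. Their shares at an unadjusted p under 0.05 were not counted, so the members that passed cannot be set against all miRNAs. Without the block, these values also depended on single libraries. For HT + EA against HT, miR-489-5p ran from -0.1537 without CEA HT 3 to -1.0044 without CEA HT 2. miR-489-3p ran from -0.4163 without PVN HT 3 to -1.0265 without CEA HT 1. Between the needled groups, miR-489-3p ran from -0.293 without CEA HT + SEA 3 to -1.5048 without CEA HT + SEA 2. DESeq2 called 0.0% of all miRNAs in each interaction and gave miR-653-5p no unadjusted p under 0.05. The intervals are wide and leave room for differences between the nuclei as large as the treatment differences themselves. Without CEA NC 1 the difference for HT against NC was -1.83 with an adjusted p of 4.24e-07 in edgeR, and 2 members were called, miR-653-5p and miR-489-5p, among 0.473% of all miRNAs (5 of 1057). That fit took its spread from all miRNAs together, with an infinite prior.

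Of 6 marker sums, 3 set CEA NC 1 apart from both NC 2 and NC 3. The neuronal sum was 24250 CPM in NC 1 against 32140 and 35250 CPM in NC 2 and NC 3, the striated muscle sum 26.1 against 49.2 and 43.3 CPM, and the red cell sum 161.0 against 235.7 and 249.1 CPM. In the other sums NC 2 lay farthest from the rest. The ciliated sum was 450.2, 1163 and 492.9 CPM in NC 1, NC 2 and NC 3, the oligodendrocyte sum (3 miRNAs) 4184, 6998 and 5092 CPM, and the myeloid sum 94.5, 131.9 and 101.4 CPM. Among the 6 ciliated markers, 1 had 0 reads in all CEA NC libraries. Across 12 CEA libraries miR-653-5p had a Pearson r of -0.80 with the neuronal sum, -0.66 with the striated muscle sum, 0.08 with the ciliated sum and -0.06 with library depth. The neuronal sum was 24510 to 35640 CPM in CEA HT, 23150 to 26660 in HT + EA and 25090 to 30930 in HT + SEA, so libraries with fewer reads of general neuronal miRNAs tended to have more miR-653-5p. Within CEA HT, the neuronal sum was 24510 CPM in HT 2, against 35640 in HT 1 and 32630 in HT 3. The ciliated sum was 995 CPM in HT 2, against 237.9 in HT 1 and 243.2 in HT 3. The part of these markers in the CEA levels was not tested.

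The arms of each hairpin were used unequally, and in similar proportion in the nuclei. The 5p arm took 96.2% of all miR-653 reads in the PVN (65843 of 68448) and 97.1% in the CEA (8006 of 8244). For miR-489 the 5p arm took 69.8% in the PVN (3940 of 5645) and 71.0% in the CEA (512 of 721). The miR-653 hairpin is therefore strongly 5p-dominant, while miR-489 delivers sizeable amounts of both arms. Together, miR-653 reads outnumbered miR-489 reads by 6.62 to 16.6 times in the PVN libraries (median 12.3) and by 8.31 to 20.7 times in the CEA libraries (median 10.8), ranges that overlap widely. Small RNA ligation favours some ends over others, so the ratio between arms or hairpins in a library is not a ratio of molecules, whereas the comparison of such a ratio between libraries is less exposed to it.

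The miR-653 5p share in the PVN was lowest in HT. With exact Clopper-Pearson 95% intervals, which cover counting error only, it was 96.5% (95.8 to 97.0), 97.1% (96.7 to 97.6) and 96.0% (95.2 to 96.6) in NC and 95.9% (95.2 to 96.5), 95.3% (94.5 to 95.9) and 93.6% (92.8 to 94.3) in HT. It was 96.4%, 96.1% and 96.3% in HT + EA and 96.0%, 96.3% and 97.1% in HT + SEA. Each HT library lay below every library of the other PVN groups, with HT 3 farthest below, but the interval of HT 1 overlapped those of all the others except NC 2 and HT + SEA 3. The group means differed by -1.6 percentage points for HT against NC, 1.37 for HT + EA against HT and 1.54 for HT + SEA against HT, each with a two-sided exact permutation p of 0.1. That is the smallest p this test can give with 3 against 3 libraries, so it cannot reach 0.05. Among the 185 to 191 hairpins with at least 100 reads over both arms in each library compared, the 5p share was separated in the same direction for 7.03% in HT against NC, 8.38% in HT + EA against HT and 4.19% in HT + SEA against HT. These shares contain the reads of miR-653-5p itself and are no independent measure of its level.

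**Figure D4:**
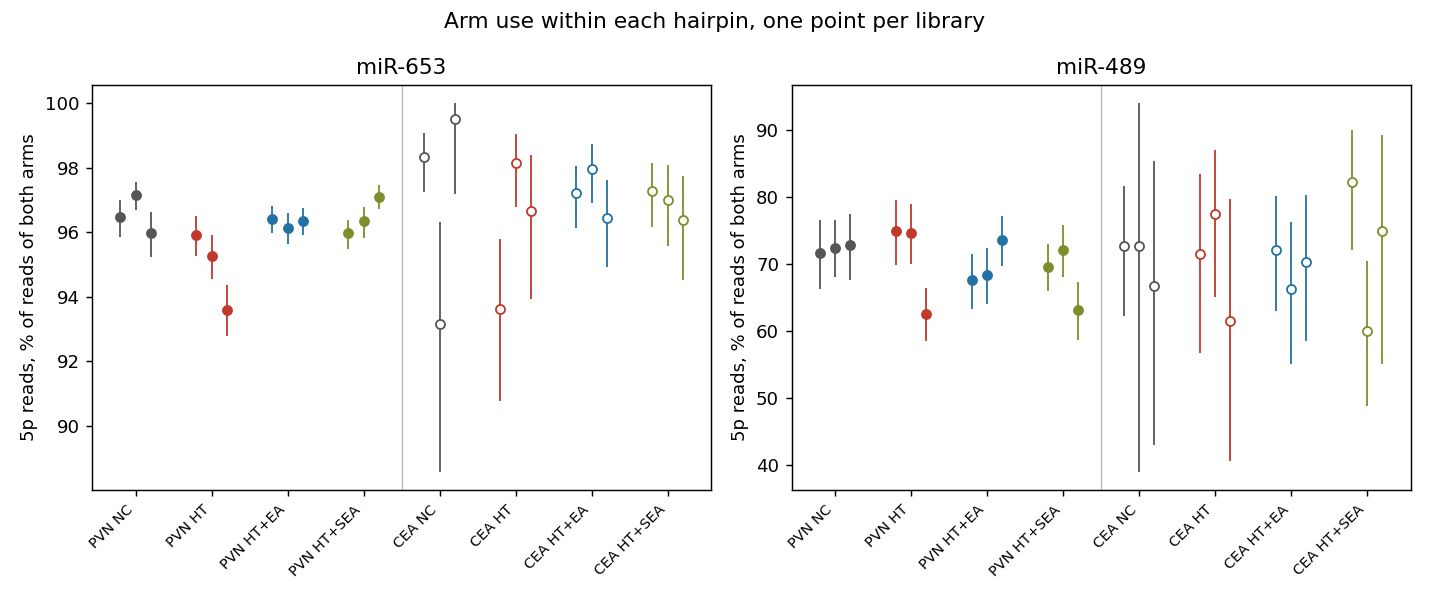
Share of reads from the 5p arm, in percent of the reads of both arms of miR-653 (left) and miR-489 (right), with a point per library and exact 95% intervals for counting error. In the left panel the PVN HT points, at 93.6 to 95.9%, are below the other PVN points, and in the right panel the groups overlap. The vertical axes do not start at 0.

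The miR-489 5p share did not separate any compared groups. In the PVN it was 71.7 to 72.8% in NC, 62.6 to 74.9% in HT, 67.6 to 73.6% in HT + EA and 63.1 to 72.1% in HT + SEA. The low HT value of 62.6% (58.5 to 66.5) came from HT 3, the library with the high miR-489-3p count, and HT + SEA 3 was similar at 63.1% (58.7 to 67.4). In the CEA, where a library had 11 to 115 reads of this hairpin, the share ran from 60.0 to 82.3%. The two-sided exact permutation p was between 0.6 and 1.0 in all 8 comparisons of groups of 3 libraries.

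miR-653-5p varied together with the other arms in the CEA and less so in the PVN. Across 12 CEA libraries the Pearson r of log2 CPM between miR-653-5p and miR-489-5p, which come from different hairpins, was 0.95, and it was 0.96 for the deviations from group means. miR-653-5p had an r of 0.82 with miR-489-3p and 0.65 with miR-653-3p in the CEA. In the PVN the corresponding values were -0.24, -0.15 and 0.05. The arms of miR-489 had an r of 0.91 in the CEA and 0.28 in the PVN. Between miR-653-3p and the miR-489 arms the order depended on the measure. Its r was 0.57 with miR-489-5p and 0.44 with miR-489-3p in the CEA, against 0.35 and 0.51 in the PVN. For the deviations from group means, miR-653-3p had an r of 0.65 with miR-489-5p and 0.60 with miR-489-3p in the PVN, against 0.44 and 0.28 in the CEA. The range of levels in the PVN was narrow, and libraries share their scaling and their treatment group, so these correlations are given as a description.

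**Figure D5:**
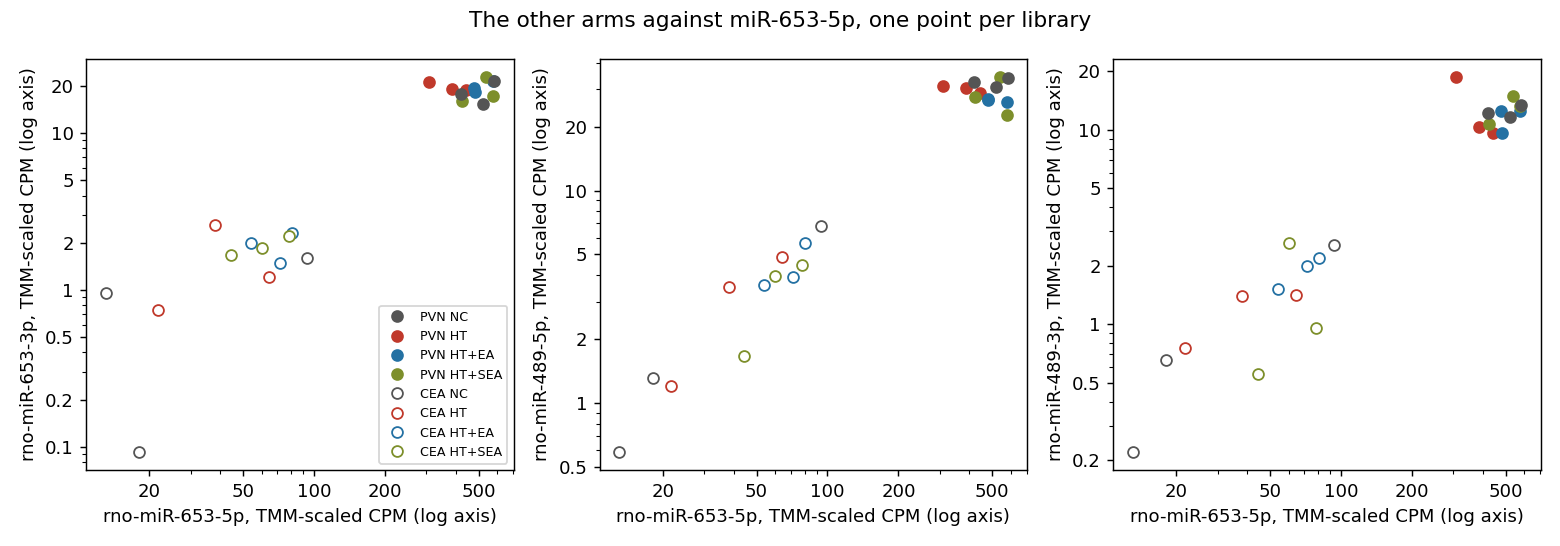
Level of miR-653-3p, miR-489-5p and miR-489-3p (vertical axes) against miR-653-5p (horizontal axes) in each library, as TMM-scaled CPM on log axes, with filled points for the PVN and open points for the CEA. In the CEA the points of miR-489-5p rise with miR-653-5p (r of 0.95), while the PVN points form a compact group.

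The miRNAs most like miR-653-5p differed by nucleus. Their r values are the highest of many, each over 12 libraries, and are given as a description. Among 367 known miRNAs with a mean of at least 10 CPM in the PVN, those with the highest r across 12 libraries were miR-298-5p (0.91), miR-375-3p (0.84), miR-370-5p (0.84) and the pair miR-409b and miR-409a-3p (both 0.82). The counts of the last pair differed by at most 0.72% in a library, so they are a single measurement. The other members ranked 179, 226 and 253 of these 367. Among 349 miRNAs in the CEA the highest were miR-135a-5p (0.95), miR-7a-5p (0.89), miR-134-5p (0.89), miR-666-5p (0.84) and miR-668 (0.83). Most of these were themselves higher in the PVN, with PVN minus CEA differences in mean log2 CPM of 2.17 for miR-135a-5p, 2.01 for miR-7a-5p, 1.49 for miR-134-5p, 1.83 for miR-666-5p and 0.19 for miR-668. miR-135a-5p averaged 299.7 CPM over the CEA libraries and miR-7a-5p 35240 CPM, far above the members.

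Other miRNAs that lie in introns of receptor genes of neurons were compared. Of the list for Htr2c, the serotonin 2C receptor gene, 6 of 9 arms were in the table, and none stood as far apart between the nuclei as the members. miR-1298, the most abundant, was at 2766 ± 176 CPM (SD, n = 12) in the PVN and 4344 ± 2474 in the CEA, a log2 difference of -0.49. miR-448-3p was at 34.8 ± 5.68 and 27.4 ± 12.3 CPM, a log2 difference of 0.43. Of the list for Gabre, the gene of the epsilon subunit of the GABA-A receptor, all 4 arms were in the table. miR-224-5p was at 10.3 ± 2.41 CPM in the PVN and 1.27 ± 0.375 in the CEA, and miR-452-5p at 13.9 ± 1.87 and 1.95 ± 0.911, log2 differences of 3.0 and 2.99. Their other arms had between 0 and 6 reads per library. The Gabre 5p arms thus came closest to the members in this respect.

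Neither list held a miRNA called at an adjusted p under 0.05 by edgeR in the 8 treatment comparisons. At an unadjusted p under 0.05 the Htr2c list had 1 of 6 lower in the PVN when HT + EA was set against HT + SEA, where 4.53% of all miRNAs were lower. In the CEA it had 2 of 6 lower in HT against NC (2.01% of all miRNAs), 1 higher in HT + EA against HT (1.79%), 3 higher in HT + SEA against HT (2.0%) and 1 lower in HT + EA against HT + SEA (1.46%). The Gabre list had 0 in all 8. For HT + SEA against HT in the CEA the median log2 fold change was 0.55 over the Htr2c list, 0.29 over the 4 members and 0.02 over the 999 miRNAs tested. For HT + EA against HT in the CEA it was 0.31, 0.56 and 0.01 in the same order, over 1004 miRNAs tested. rno-miR-181b-1-3p, which shares bases 2 to 7 with miR-653-3p, ran the other way between the nuclei, at 11.1 ± 1.66 CPM in the PVN and 22.6 ± 4.55 in the CEA.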

How the data were processed

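For each of 24 libraries, the authors deposited unnormalised counts of reads on 703 known rat miRNAs and 395 predicted ones. According to the study's methods, libraries were made with a NEBNext small RNA kit, reads were filtered for adapters, uncertain bases and low quality and mapped to mRatBN7.2, and HISAT2 and featureCounts are named. The submitters' notes list GRCh38 and hg38 for the same rat samples. How miRNA reads were counted, and how reads with several matches were treated, is not given in the sources used here. The 24 other columns equal the counts scaled to CPM to within 4.9e-05 and were not used.

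The members and lists were chosen with earlier results of these data known. Each pair of groups was fitted on its 6 libraries with edgeR 4.0.16 (limma 3.58.1, R 4.3.3), using TMM and the quasi-likelihood functions glmQLFit and glmQLFTest. A miRNA was tested if it had at least 1 count in those libraries. Tests were two-sided. A call is an adjusted p under 0.05, with the Benjamini-Hochberg method applied to every miRNA tested, and the count at an unadjusted p under 0.05, the study's threshold, is given beside it. Standard errors are the log2 fold change over the square root of F. Differences between nuclei were fitted as interactions over 12 libraries. Log2 CPM has 0.5 counts added. Scripts were tested on simulated data. Named miRNAs are the 4 members, the lists for Htr2c and Gabre, miRNAs sharing a seed (the miRNA sharing bases 2 to 7 was added after its values were seen), and the 5 known miRNAs most correlated with miR-653-5p in each nucleus. Sequences are from RefSeq (GRCr8), which held 637 of the 703 known miRNAs by name. Coordinates of the files' own build are not given. Python 3.11.15, scipy 1.17.1, numpy 2.4.6, pandas 2.3.3 and matplotlib 3.10.9 were used.

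Alternatives were DESeq2 1.42.0, its size factors, library totals, filterByExpr, at least 10 counts, all groups in the fit, robust estimates, the replicate block and each library left out in turn. Replicate numbers are shared by all groups. Deviations from the group mean over 365 miRNAs correlated above 0.1 for every same-numbered pair in HT + EA against HT in the PVN (0.14 to 0.33) and in HT against NC in the CEA (0.25 to 0.50), and not in the other 6 comparisons. What such libraries share is not stated in the labels. Prior degrees of freedom were 478, 23.3 and 24.5 for the PVN comparisons of HT with NC, HT + EA and HT + SEA, 34.5 and 57.5 for the CEA comparisons of HT with HT + EA and HT + SEA, against 4 from the libraries. The CEA fit of HT against NC and the PVN fit of HT + EA against HT + SEA had infinite priors.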

Additional observations from a re-analysis of the deposited data

How the results depend on the processing

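Values are log2 fold changes. Of the alternative values for miR-653-5p, the level differences and the member counts, 262 kept their direction and their side of the 0.05 threshold, 17 changed direction, 12 became calls with their direction kept and 9 moved. HT against NC in the CEA without NC 1 both changed direction and became a call. The cause of these changes was not tested. For miR-653-5p in the PVN, HT against NC was called with all 4 groups in the fit (-0.45), HT + EA against HT with the replicate block (0.47) and HT + SEA against HT with robust estimates (0.44). Libraries left out in turn gave -0.56 to -0.32, 0.31 to 0.60 and 0.30 to 0.57 for these comparisons, and real against sham needling gave -0.14 to 0.11. In the CEA the same comparisons gave -0.46 to 1.40, 0.39 to 1.14, 0.23 to 1.0 and -0.0331 to 0.39 in that order. The replicate block turned HT against NC in the CEA to 0.36, with no call, and beyond the call named above its paired fits changed no adjusted call. PVN minus CEA interactions for miR-653-5p ran, with libraries left out, from -1.83 to 0.0683, -0.66 to 0.0936, -0.57 to 0.21 and -0.45 to 0.0005, again in that order. The number of members called in the first of these ran from 0 to 2, the latter without CEA NC 1, where 0.473% of all miRNAs were called. With NC libraries only, the PVN minus CEA level difference was 4.16 for miR-653-5p, 4.88 for miR-653-3p and 4.17 for miR-489-5p. Leaving out CEA NC 1, NC 2 or NC 3 as well, chosen after seeing the data, gave 5.02, 3.61 and 3.84 for miR-653-5p, 5.59, 5.23 and 3.81 for miR-653-3p, 5.13, 3.41 and 3.96 for miR-489-5p, and 4.87, 3.20 and 3.92 for miR-489-3p.

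The other arms also changed direction under some alternatives. In HT + EA against HT in the PVN, miR-653-3p was at -0.0211 with DESeq2, -0.0204 with its size factors, -0.0172 with library totals, -0.014 with filterByExpr and -0.0078 with at least 10 counts. In HT + SEA against HT in the PVN, miR-489-3p was at -0.0005, -0.0037, -0.0148 and -0.0285 under the first 4 of these. The replicate block gave -0.0028 for PVN miR-489-3p when HT was set against NC. It gave -0.0044 for CEA miR-653-3p when real was set against sham needling, where all 4 groups in the fit gave -0.0011. Without 1 library, PVN values ran from -0.34 to 0.23 for miR-489-3p in HT against NC, from -0.29 to 0.22 for miR-489-3p and -0.0447 to 0.0559 for miR-653-3p in HT + EA against HT, from -0.17 to 0.37 for miR-489-3p and -0.28 to 0.0361 for miR-489-5p in HT + SEA against HT, and from -0.20 to 0.0701 for miR-489-5p and -0.0352 to 0.22 for miR-653-3p in HT + EA against HT + SEA. CEA values ran from -0.36 to 1.74 for miR-489-5p and -0.44 to 1.44 for miR-489-3p in HT against NC, and from -0.0252 to 0.97 for miR-653-3p in HT + EA against HT. They ran from -0.0313 to 0.98 for miR-653-3p, -0.33 to 0.51 for miR-489-5p and -0.62 to 0.59 for miR-489-3p in HT + SEA against HT, and from -0.15 to 0.14 for miR-653-3p in HT + EA against HT + SEA.

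Fits with a group reduced to fewer libraries assume that it varies like the others. Read depth limits the CEA values of miR-653-3p and miR-489-3p, which rest on 238 and 209 reads over 12 libraries, and 3 libraries per group limit every comparison.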
